A study of Homo sapiens with 4 samples.

Results

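The genes described here are LCN2, which encodes a secreted lipocalin, and 9 genes of cellular iron handling: TFRC, SLC11A2, FTH1, FTL, NCOA4, SLC40A1, HMOX1, ACO1 and IREB2. A probe was taken when the array's annotation named a member as its only gene, which gave 11 probes, 2 of them for IREB2, out of 31741 probes and 18336 named genes. LCN2 was chosen by its intensities in this same contrast, and the others were assembled around it with earlier results of these data known. The values of the 10 genes in this contrast are therefore a description, and neither their differences nor their calls are evidence beyond that choice.

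The data came from 2 stable derivatives of DLD-1, a human cell line established from a colorectal adenocarcinoma. The group labelled HMGA2 carried pCMV6-HMGA2, a plasmid that expresses a tGFP-tagged form of the chromatin protein HMGA2, and the group labelled vector carried pCMV6-AC-GFP, the plasmid without it. Both lines were selected in 1 mg/mL G418, kept in 0.5 mg/mL, grown in medium with 10% FBS and left untreated before RNA was prepared, so serum was present in every culture. There were 4 single-colour arrays, 2 per line. Whether a line is a single clone or a pool, and whether its 2 arrays came from separate cultures, is not stated in the labels. The p-values below therefore cover no more than the variation among these samples, which could be technical, and line and plasmid cannot be told apart.

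The arrays labelled HMGA2 had a median probe intensity of 649 and 607, and those labelled vector 698 and 767. Neither HMGA2 probe checks the labels. The brighter read 3917 and 4369 on the arrays labelled HMGA2 against 5576 and 5270 on those labelled vector, and the dimmer read 4596 and 3466 against 2728 and 3493. Whether either detects the transcript of the plasmid was not tested, so every direction below rests on the labels. Of 9 measured colon epithelial markers all were above the limit for dim genes, an intensity of 234.3 set at the 25th percentile of genes. A gene was placed against this limit by its mean over the 4 arrays. EPCAM read 290962 and 281091 on the arrays labelled HMGA2 against 243656 and 234684 on those labelled vector, while KRT8 read 871 and 842 against 4811 and 4398. As deposited, 4 of the 9 passed an adjusted p of 0.05 (limma) as higher (EPCAM, CDH1, VIL1 and CLDN4) and 2 as lower (KRT8 and CDX2). That is 66.7%, where 43.6% of all tested genes passed. After quantile normalization 5 were higher and 2 lower. Marker lists of other cell types were partly or wholly above the limit. Below it were 2 of 5 measured leukocyte genes (PTPRC and CD3E) and 4 of 8 fibroblast genes (COL1A2, COL3A1, DCN and THY1). So were 4 of 6 hepatocyte genes (ALB, TTR, FGB and CYP3A4), 2 of 7 macrophage genes (CSF1R and MARCO) and 2 of 6 endothelial genes (KDR and CLDN5). By group, the means of TTR on the arrays labelled HMGA2 (272) and of KDR on those labelled vector (241) were above the limit. All 4 measured erythroid genes were above it. Of these EPOR (1041 and 990 on the arrays labelled HMGA2, 1275 and 1294 on those labelled vector) passed an adjusted p of 0.05 as lower, but not after quantile normalization. CD3D read 12672 and 11920 on the arrays labelled HMGA2 against 9451 and 10862 on those labelled vector, and COL1A1 3483 and 3050 against 3951 and 4868. Of 3 tested leukocyte genes MS4A1 alone passed an adjusted p of 0.05, as higher (569 and 1017 against 269 and 427). That is 33.3% against 43.6% of all tested genes. Of 5 tested macrophage genes CD68 (1585 and 1242 against 983 and 842) and CD163 (368 and 498 against 250 and 123, the vector mean dim) passed as higher and CD14 as lower (3175 and 3014 against 4803 and 5183). That is 60.0% against the same 43.6%. The macrophage list summed to 6772 and 6115 on the arrays labelled HMGA2 against 7217 and 7836 on those labelled vector. The leukocyte list summed to 14038 and 13487 against 10251 and 12049. Most of the leukocyte sum on each array was CD3D, which was not called (limma, adjusted p = 0.0617). These lists were read in cultures of a cell line and are not counts of such cells. Their part in the results was not tested. With bulk RNA, fewer cells that make a transcript and less transcript per cell cannot be told apart.

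Iron enters most cells bound to transferrin, through the transferrin receptor TFRC, and leaves the endosome through the divalent metal transporter SLC11A2. Iron that is not used is stored in ferritin, a shell of FTH1 and FTL chains. NCOA4 carries ferritin to the lysosome for breakdown, and SLC40A1 (ferroportin) exports iron. The iron regulatory proteins, encoded by ACO1 and IREB2, bind stem-loops called iron-responsive elements in messenger RNA when iron is scarce. This blocks translation of the ferritin chains and stabilises the transcript of TFRC. LCN2, also called NGAL, takes up bacterial siderophores with their iron and is made by inflamed colon epithelium, where NF-kB and C/EBP factors drive its gene.

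A pair of sequences places these controls on the genes. The first is the 250 bases before the start of LCN2, the gene with the largest difference of the set, shown because NF-kB and C/EBP act at this promoter (GRCh38.p14, chr9:128149203-128149452, plus strand, from RefSeq, with the overlapping NF-kB matches in capitals). The second is the part around the loop of the iron-responsive element at the FTL transcript start (GRCh38.p14, chr19:48965336-48965358, plus strand, from RefSeq, with the loop in capitals). It is shown because both iron regulatory proteins bind that element.
LCN2: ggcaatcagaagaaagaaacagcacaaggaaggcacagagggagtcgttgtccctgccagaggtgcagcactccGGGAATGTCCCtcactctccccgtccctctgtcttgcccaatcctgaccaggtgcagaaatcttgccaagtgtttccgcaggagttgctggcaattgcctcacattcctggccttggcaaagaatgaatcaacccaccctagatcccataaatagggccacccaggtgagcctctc
FTL: tcttgcttcaaCAGTGTttggac
RefSeq promoter windows, from 250 bases before to 50 after a start, were matched for 8 of the 10 genes, 13 windows in all. FTH1 and HMOX1 were not matched. For NF-kB, the letters GGGA, 4 free bases and CC were searched on both strands. They matched LCN2 at -176 as GGGAATGTCC and, overlapping it by all but a base, at -175 on the other strand. The letters of that other match, as read on the plus strand, are GGAATGTCCC. They also matched windows of SLC40A1, ACO1 and IREB2, and 25.6% of all 35116 windows. TTNNGNAA, searched on both strands for C/EBP, matched LCN2 at -143, as well as windows of FTL and SLC11A2 and 36.8% of all windows. For the core of the iron-responsive element, a C, 5 free bases and CAGTG were searched on the sense strand. They matched FTL at 33 bases from the start and no other window of these genes, against 10.2% of all windows. The windows end 50 bases after a start, so the rest of each transcript was not searched. The absence of a match therefore does not show that TFRC or another of these transcripts lacks the element. A match of letters is a description and not a site.

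LCN2 had the widest gap between the groups in this set. Its probe read 9306 and 7843 on the arrays labelled HMGA2, against 1516 and 1611 on those labelled vector. Both HMGA2 arrays lay far above both vector arrays. The means were 8574.5 ± 1034.5 and 1563.5 ± 67.2 (SD, n = 2 each), a 5.47-fold or 2.45 log2 difference (SE 0.11). In the order of 13752 tested genes from the highest difference down it was at place 14. A single probe carries this value.

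**Figure D1:**
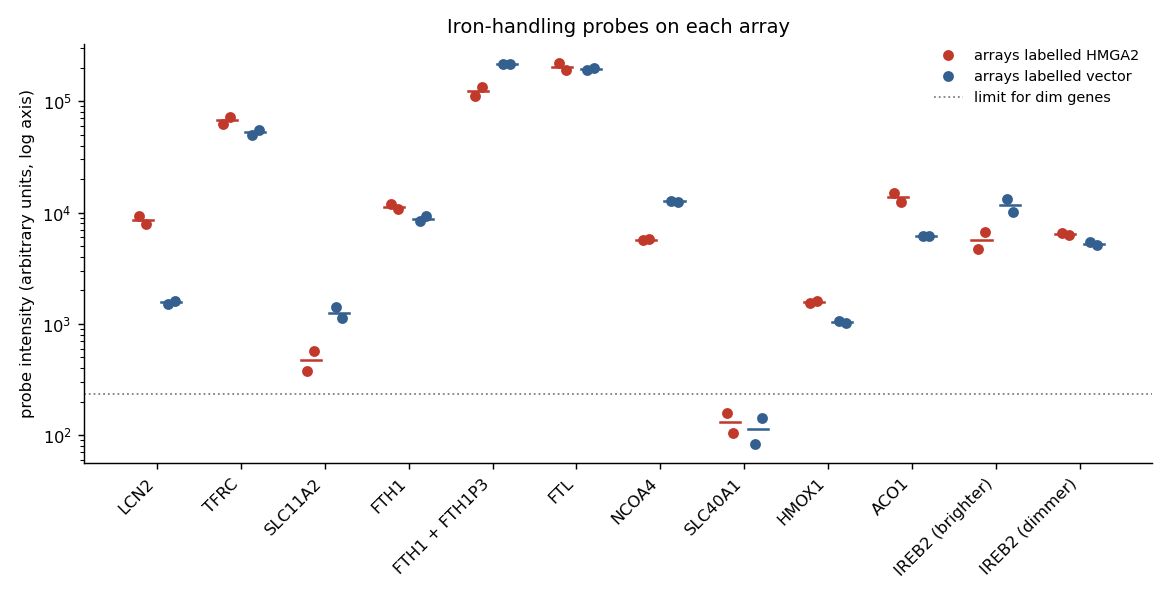
Probe intensity (arbitrary units, log axis) on the 2 arrays labelled HMGA2 (red) and the 2 labelled vector (blue) for the 11 probes of the 10 genes and for a probe that names FTH1 together with FTH1P3. Points are arrays, short lines are group means, and the dotted line is the limit for dim genes at 234.3. LCN2 lies between 7843 and 9306 in red and between 1516 and 1611 in blue, the IREB2 probes sit in opposite orders, and SLC40A1 lies below the dotted line in both groups.

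The genes of iron uptake went opposite ways. TFRC, the receptor for transferrin, read 62121 and 72816 on the arrays labelled HMGA2, against 49975 and 55258 on those labelled vector. The arrays did not overlap, with means of 67468.5 ± 7563 and 52616.5 ± 3736 (SD, n = 2 each), a log2 difference of 0.36 (SE 0.10). SLC11A2, which moves ferrous iron across the endosomal and apical membranes, read 379 and 567 on the arrays labelled HMGA2, against 1403 and 1121 on those labelled vector. All HMGA2 values were lower, by -1.44 log2 (SE 0.19), and 442 places from the low end of the tested genes.

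Storage genes showed a marked difference in NCOA4, the cargo receptor that delivers ferritin to the lysosome, and little in the light chain. NCOA4 read 5623 and 5760 on the arrays labelled HMGA2, against 12702 and 12435 on those labelled vector. Replicates were close (5691.5 ± 96.9 and 12568.5 ± 189, SD, n = 2 each) and the log2 difference was -1.14 (SE 0.10). FTL, the light chain, read 220357 and 189329 on the arrays labelled HMGA2, against 191965 and 197559 on those labelled vector. These overlapped, and the log2 difference of 0.07 was smaller than its SE of 0.11.

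FTH1, the heavy chain that oxidises ferrous iron on entry into the shell, gave no single answer. The probe that names FTH1 alone read 11814 and 10840 on the arrays labelled HMGA2, against 8402 and 9277 on those labelled vector, a log2 difference of 0.36 (SE 0.10). A further probe names FTH1 together with its pseudogene FTH1P3 and was outside the rule, so it is given here after its values were seen. It read 111695 and 134061 on the arrays labelled HMGA2, against 214058 and 217400 on those labelled vector, a log2 difference of -0.82 (SE 0.11). The orders are opposite, and which transcripts each probe binds was not tested. FTH1 has many near-identical pseudogene copies, so both values are uncertain.

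SLC40A1, the exporter, gave 158 and 105 on the arrays labelled HMGA2, against 83 and 142 on those labelled vector. All 4 values were below the limit for dim genes and overlapped, so it was left out of the tested genes and no difference was detectable at this signal. HMOX1, the inducible haem oxygenase that frees iron from haem, read 1526 and 1607 on the arrays labelled HMGA2, against 1060 and 1013 on those labelled vector. Both HMGA2 values were higher, by 0.60 log2 (SE 0.15).

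The regulators differed between each other and, for IREB2, between probes. ACO1, the cytosolic aconitase that becomes iron regulatory protein 1 when it lacks its iron-sulfur cluster, read 14849 and 12504 on the arrays labelled HMGA2, against 6164 and 6137 on those labelled vector. The groups stood well apart, at 13676.5 ± 1658 and 6150.5 ± 19.1 (SD, n = 2 each), a 2.22-fold or 1.15 log2 difference (SE 0.10), at place 136 from the highest. For IREB2, iron regulatory protein 2, the brighter probe read 4708 and 6654 on the arrays labelled HMGA2, against 13104 and 10161 on those labelled vector, a log2 difference of -1.04 (SE 0.12). Its dimmer probe read 6617 and 6221 on the arrays labelled HMGA2, against 5425 and 5059 on those labelled vector, a log2 difference of 0.29 (SE 0.10). Neither probe overlapped between the groups and their directions were opposite. On the arrays labelled HMGA2 the probe called brighter had a mean of 5681, against 6419 for the dimmer. On those labelled vector the means were 11632.5 and 5242, so it was the brighter through the vector arrays alone. The positions of the 2 probes in the transcript are not stated in these sources, so no direction is stated for IREB2 as a gene.

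**Figure D2:**
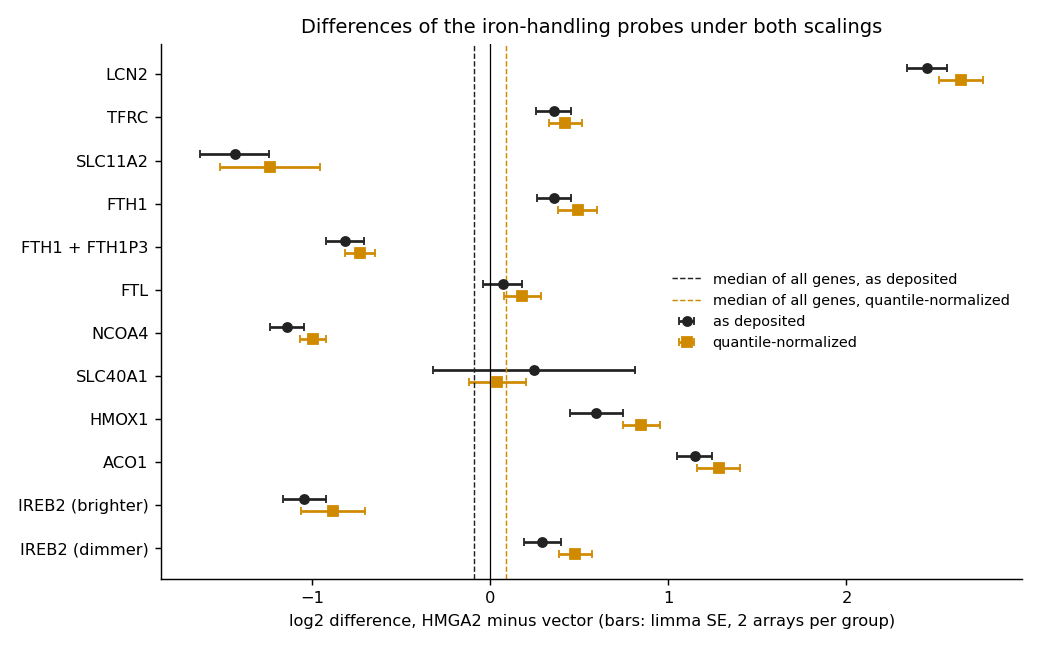
Log2 difference (HMGA2 minus vector) of each probe as deposited (black circles) and after quantile normalization (orange squares), with limma standard errors from 2 arrays per group. Dashed lines mark the median of all tested genes, -0.09 as deposited and 0.09 after quantile normalization. LCN2 is farthest to the right (2.45 and 2.65), SLC11A2 farthest to the left (-1.44 and -1.24), and the signs are the same under both scalings.

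Scaling moved these values, and no log2 difference of the 11 probes changed sign after quantile normalization. Quantile normalization shifted the median of all tested genes by 0.18 log2, to 0.09 against -0.09 as deposited. Relative to those medians LCN2 stood at 2.56 after quantile normalization and 2.54 as deposited, ACO1 at 1.20 and 1.24, HMOX1 at 0.76 and 0.69, TFRC at 0.34 and 0.45, SLC11A2 at -1.32 and -1.34, and NCOA4 at -1.08 and -1.05. FTL stood at 0.09 and 0.16.

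In the limma fit of one value per gene, its brightest probe, 9 of the 10 genes had a level that could be tested. As a description, 5 passed an adjusted p of 0.05 as higher (LCN2, TFRC, FTH1, HMOX1 and ACO1) and 3 as lower (SLC11A2, NCOA4 and the brighter IREB2 probe), with FTL as the exception. That IREB2 probe was the brighter through the arrays labelled vector. Over all 13752 tested genes 43.6% passed, 14.9% as higher and 28.7% as lower, and the arrays of the groups did not overlap for 71.3%, with 27.7% higher and 43.6% lower. After quantile normalization the same 8 genes passed, where 50.6% of all tested genes did, 28.0% as higher and 22.6% as lower. Since the contrast itself chose the set, nothing is read from its count. TFRC and FTH1 were the weakest: without vector replicate 1 neither was called, without HMGA2 replicate 1 FTH1 was not, and without HMGA2 replicate 2 TFRC was not. The other 6 calls held without each array in turn.

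**Figure D3:**
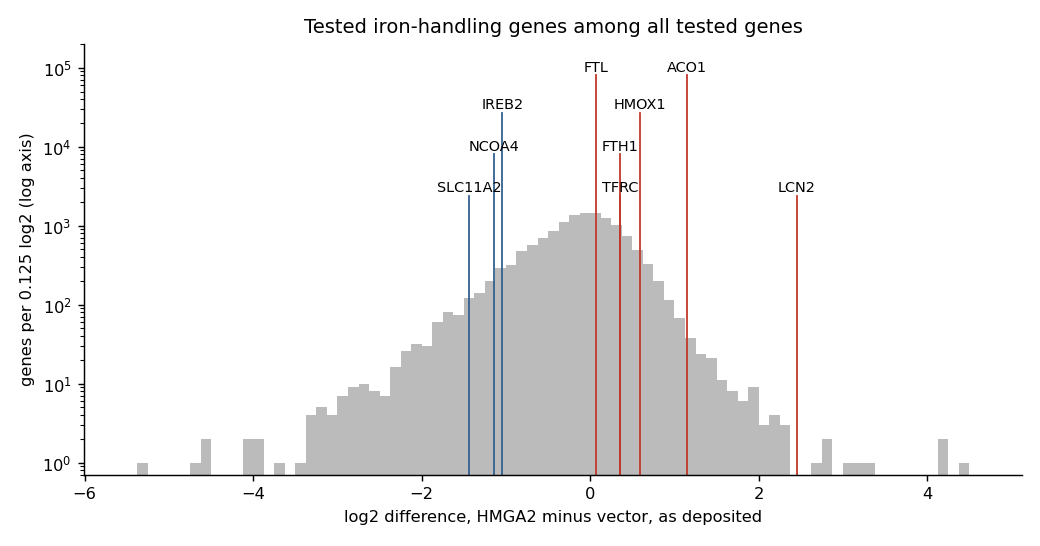
Histogram of the log2 difference (HMGA2 minus vector, as deposited) over the other tested genes, with the number of genes on a log axis, and vertical lines at the 9 tested iron-handling genes. LCN2 at 2.45 lies in the thin right tail, SLC11A2, NCOA4 and IREB2 lie in the left shoulder, and FTL at 0.07 lies near the middle.

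The tested genes whose profile over the 4 arrays lay nearest to that of LCN2, by Euclidean distance between centred log2 values, were SLC2A3 (0.23), CATSPERZ (0.27), RRBP1 (0.31), IQGAP2 (0.32) and PDE2A (0.36). They are named for likeness alone and untested. SLC2A3, a glucose transporter, read 5361 and 5210 on the arrays labelled HMGA2 against 1086 and 1061 on those labelled vector, and RRBP1, a ribosome-binding protein of the endoplasmic reticulum, 23207 and 21755 against 4994 and 5039. The vector means of CATSPERZ and PDE2A were below the limit for dim genes.

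The other genes of lipocalin, iron and haem biology were taken from 12 lists. Of 186 genes, 177 had a probe and 150 could be tested. Of these 23 rose and 46 fell on the arrays labelled HMGA2, 46.0% against 43.6% of all tested genes, with a median of -0.10 log2 against -0.09 for all. After quantile normalization 47 rose and 36 fell, so the balance of directions over the lists depended on scaling. The share of calls over all genes that were rises was likewise 55.2% after quantile normalization and 34.2% as deposited.

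**Figure D4:**
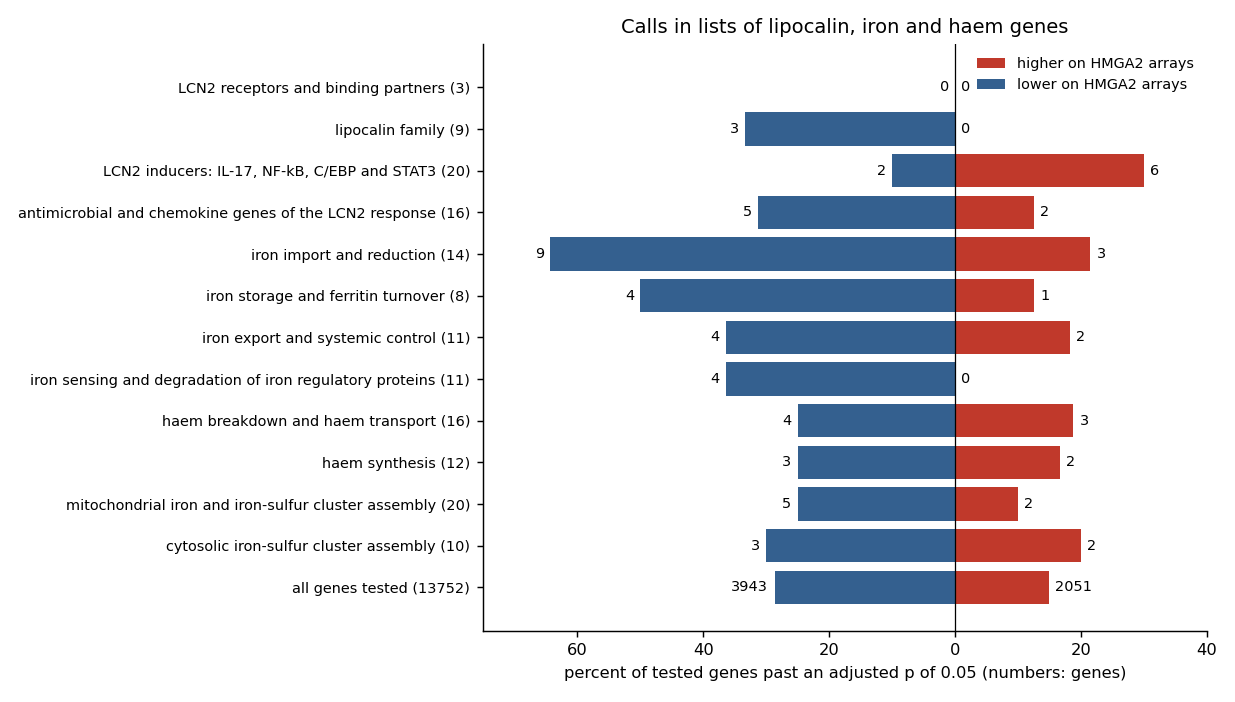
Percent of the tested genes of each list that passed an adjusted p of 0.05 (limma, as deposited) as higher (red, to the right) or lower (blue, to the left) on the arrays labelled HMGA2, with the number of genes at the end of each bar and the number tested in parentheses. The bottom bar gives all 13752 tested genes. As deposited, the longest bar to the left is iron import and reduction, with 9 of 14 genes lower, which became 6 after quantile normalization.

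No receptor or binding partner was called by limma: of 3 tested, 1 had an unadjusted p under 0.05, the receptor gene SLC22A17 (1738 and 1462 on the arrays labelled HMGA2, 1067 and 1293 on those labelled vector, log2 0.44, adjusted p = 0.0532). It passed after quantile normalization (0.69, adjusted p = 0.00851). MMP9, the protease that LCN2 binds, read 515 and 505 against 502 and 544. Among 9 other lipocalins 0 rose and 3 fell as deposited, with the same counts at an unadjusted p under 0.05 (limma), 33.3% against 43.6% of all genes. Both after quantile normalization and after subtraction of array medians 3 rose and 3 fell, the rises after quantile normalization being LCN6, LCN8 and PTGDS, named after their values were seen. RBP4, the retinol carrier, fell (552 and 528 against 1372 and 1448, log2 -1.38, SE 0.12, adjusted p = 0.000491), as did PAEP (-1.04, adjusted p = 0.00447). APOM fell too (-0.70, adjusted p = 0.0386), but lost its call when vector replicate 1 (adjusted p = 0.0845), vector replicate 2 (0.171) or HMGA2 replicate 2 (0.166) was left out.

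Of 20 tested genes of the routes that induce LCN2, 6 rose and 2 fell, 40% against 43.6% of all genes, with a median of 0.06 log2. Without HMGA2 replicate 2 the counts were 4 and 3, and without vector replicate 2 they were 8 and 3. TRAF3IP2, the adaptor of the IL-17 receptor, rose (1836 and 1901 on the arrays labelled HMGA2, 952 and 1123 on those labelled vector, log2 0.85, SE 0.12, adjusted p = 0.00259). ZC3H12A, a ribonuclease that limits inflammatory transcripts, fell (1274 and 1324 against 2445 and 2256, log2 -0.85, SE 0.10, adjusted p = 0.00131). The brighter of 2 probes of IL17RA, the receptor, rose by 0.84 log2 (adjusted p = 0.0279) but not without HMGA2 replicate 1 (0.0713) and the other gave -0.20. Outside the rule for named genes, STAT3 (0.54), TNFAIP3 (0.78) and the NF-kB subunits NFKB2 (0.78) and RELB (0.83) rose. The calls of RELB and TNFAIP3 were lost without HMGA2 replicate 2. RELA (-0.56) fell, a call lost when array medians were subtracted. NFKB1 (0.06), NFKBIA (-0.17) and CEBPD (-0.22) were not called. NFKBIZ, the NF-kB cofactor of the LCN2 promoter, gave -0.26 (adjusted p = 0.0569), and CEBPB -0.08 (adjusted p = 0.443).

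Of 16 tested antimicrobial and chemokine genes that accompany LCN2 in inflamed epithelium, 2 rose and 5 fell as deposited, 43.8% against 43.6% of all genes. The counts were 5 and 4 after quantile normalization, 1 and 3 without HMGA2 replicate 2, and 1 and 4 without HMGA2 replicate 1 or vector replicate 1. The acute-phase gene SAA1, one of the 2, read 656 and 627 on the arrays labelled HMGA2, against 180 and 198 on those labelled vector. Both vector values were below the limit for dim genes, so SAA1 was tested through its HMGA2 arrays and no size is given. The neutrophil chemokines CXCL5 (10888 and 12904 against 34316 and 29374, log2 -1.42, adjusted p = 0.00042) and CXCL2 (397 and 391 against 776 and 804, adjusted p = 0.00317) fell, and the other CXCL5 probe gave -2.14. Neutrophils also store LCN2, although these samples were cultures of a colorectal cell line. Of 9 measured neutrophil markers 4, MPO, CTSG, CAMP and CEACAM8, were below the limit for dim genes, and of the 5 tested 0 rose and 1, PRTN3, fell, with the same counts at an unadjusted p under 0.05 (limma), against 1 rise and 1 fall after quantile normalization. The list summed to 5903 and 6138 on the arrays labelled HMGA2, against 6177 and 5925 on those labelled vector. LTF made up most of each sum, at 3600 and 4495 against 4470 and 3763.

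Of 14 tested genes of iron import and reduction 3 rose and 9 fell, 85.7% against 43.6% of all genes, with a median of -0.58 log2 against -0.09. After quantile normalization 3 rose and 6 fell (median -0.40 against 0.09), where 50.6% of all genes passed. Members of the STEAP family, together with CYBRD1, made up much of the falls. STEAP1 read 252 and 244 on the arrays labelled HMGA2, and 1939 and 1715 on those labelled vector (log2 -2.88, SE 0.15, adjusted p = 0.00012). Its HMGA2 values lay close above the limit for dim genes at 234.3, so the size of its fall is uncertain. STEAP2 fell as well (3231 and 2530 against 5918 and 5724, log2 -1.03, adjusted p = 0.00167). So did, outside the rule for named genes, CYBRD1, the duodenal cytochrome b reductase (638 and 647 against 1266 and 1293, log2 -0.99, adjusted p = 0.00134). HFE, which binds the transferrin receptor, fell (544 and 506 against 1412 and 1284, log2 -1.36, SE 0.13, adjusted p = 0.00066). Also outside that rule, as are the genes that follow, the second transferrin receptor TFR2 (-0.74) and the iron chaperone PCBP2 (-0.67) fell. The falls of STEAP3 (-0.48), STEAP4 (-0.39) and SLC39A8 (-0.38) were lost after quantile normalization. The 3 rises were EXOC6 (0.52), SLC39A14 (0.53) and PCBP1 (0.33), the last pair not called without vector replicate 2 or HMGA2 replicate 2. The calls of that pair were also lost when the 2 probes of each gene were averaged (limma, adjusted p = 0.65 and 0.0774). They were lost without the intensity trend as well (0.0695 and 0.084). DNM2, a dynamin of endocytosis, was not called (adjusted p = 0.264): it read 77 and 5043 on the arrays labelled HMGA2, against 4195 and 3714 on those labelled vector.

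**Figure D5:**
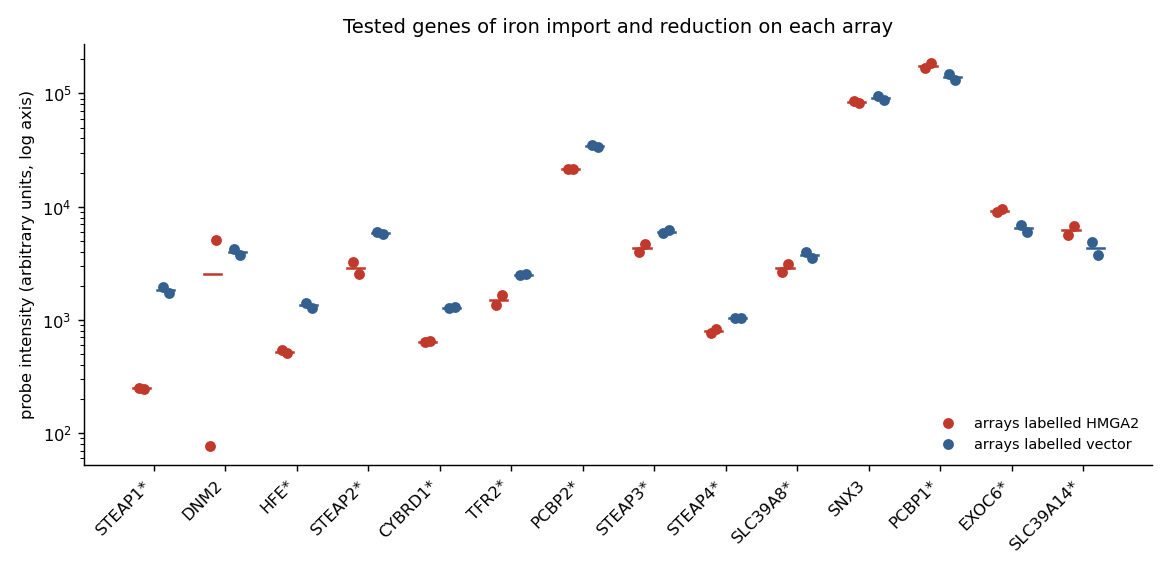
Probe intensity (arbitrary units, log axis) on the 2 arrays labelled HMGA2 (red) and the 2 labelled vector (blue) for the 14 tested genes of iron import and reduction, ordered by their difference; points are arrays, short lines are group means, and an asterisk marks an adjusted p under 0.05. STEAP1 shows the widest separation of a called gene (252 and 244 in red, 1939 and 1715 in blue), and the DNM2 points in red lie far apart, at 77 and 5043.

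Among 8 tested genes of ferritin turnover 1 rose and 4 fell, 62.5% against 43.6% of all genes. After quantile normalization 1 rose and 2 fell. TAX1BP1, an autophagy receptor that works with NCOA4, fell (33180 and 37215 on the arrays labelled HMGA2, 58823 and 53979 on those labelled vector, log2 -0.68, SE 0.09, adjusted p = 0.00191). The brightest of 3 probes of the lysosomal membrane gene LAMP2 also fell (-0.68, adjusted p = 0.0174), while the others gave -0.52 and -0.10 and were not called. MAP1LC3B, of the autophagosome membrane, fell as deposited (-0.48, adjusted p = 0.00888) but not after quantile normalization (-0.33, adjusted p = 0.0504). The rise was in LAMP1 (0.43), outside the rule for named genes, and was lost without vector replicate 1 or HMGA2 replicate 2.

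Of 11 genes of export and systemic control 2 rose and 4 fell, 54.5% against 43.6% of all genes. Without HMGA2 replicate 1 or vector replicate 1 there was 1 rise. ID1, a target of the BMP signal that also drives hepcidin in liver, fell (25127 and 26859 on the arrays labelled HMGA2, 136838 and 124556 on those labelled vector, log2 -2.33, SE 0.08, adjusted p = 6.83e-05). Outside the rule for named genes, SMAD7 (-0.79) and BMPR1A (-1.03), of the same pathway, fell as well. The copper ferroxidase genes HEPH and HEPHL1 each had a dim group and were tested through the other, so no size is given for them. HEPH read 215 and 157 on the arrays labelled HMGA2, against 370 and 409 on those labelled vector, and HEPHL1 437 and 382 against 172 and 219. HEPH lost its call without vector replicate 2 or HMGA2 replicate 2, and HEPHL1 without vector replicate 1 or HMGA2 replicate 1. CP, also a copper ferroxidase gene and outside the rule for named genes, had no dim group. It read 303 and 274 on the arrays labelled HMGA2, against 279 and 322 on those labelled vector. It was not called (log2 -0.06, limma adjusted p = 0.866). HAMP, which encodes hepcidin, was below the limit for dim genes.

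Of 11 tested genes of iron sensing 0 rose and 4 fell, with the same counts at an unadjusted p under 0.05 (limma). That is 36.4% of the list against 43.6% of all genes, of which 28.7% fell. After quantile normalization 1 of the 11 rose and 4 fell. EPAS1, a hypoxia-inducible factor whose transcript carries an iron-responsive element, fell on its brighter probe (1767 and 1786 on the arrays labelled HMGA2, 6002 and 5388 on those labelled vector, log2 -1.68, SE 0.10, adjusted p = 0.000151), and its dim probe gave -0.02. The brighter probe of the ubiquitin ligase scaffold CUL1 fell (76554 and 67109 against 149066 and 146111, log2 -1.04, adjusted p = 0.000388), while the other gave 0.15 and was not called. Both probes of ZFP36L1, a decay factor for AU-rich transcripts, fell (-0.93, adjusted p = 0.00131, and -1.35). FBXL5, the iron-sensing adaptor that marks IREB2 protein for degradation, fell by 0.55 log2 (3241 and 3650 against 5054 and 5027, adjusted p = 0.00518). It is outside the rule for named genes, and the call was lost when array medians were subtracted.

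Of 16 tested genes of haem breakdown and transport 3 rose and 4 fell, 43.8% against 43.6% of all genes. After quantile normalization 6 rose and 4 fell, and there was 1 rise without HMGA2 replicate 1, HMGA2 replicate 2 or vector replicate 1. POR, the reductase that feeds electrons to haem oxygenase, rose (18900 and 19575 on the arrays labelled HMGA2, 11069 and 10698 on those labelled vector, log2 0.82, SE 0.08, adjusted p = 0.000548), while HMOX2, the constitutive oxygenase, gave 0.21 (adjusted p = 0.161). KEAP1, the brake on NRF2, fell (-0.79, adjusted p = 0.000874). The haem exporter FLVCR1 fell on its brighter probe (513 and 401 against 1830 and 1853, log2 -2.02, SE 0.16, adjusted p = 0.000328). The other probe gave 0.17 (519 and 624 against 552 and 465). On the arrays labelled HMGA2 that other probe read higher, so the choice between them rested on the vector arrays. No direction is stated for FLVCR1 as a gene. Of 12 genes of haem synthesis 2 rose and 3 fell, 41.7% against 43.6% of all genes. The balance turned with scaling, to 6 rises and 1 fall after quantile normalization and 4 rises and 0 falls after subtraction of array medians. As deposited, UROD rose (0.45, adjusted p = 0.00641) and CPOX (-0.48, adjusted p = 0.00252) and FECH, which inserts the iron (-0.45, adjusted p = 0.0192), fell. The FECH call was lost after quantile normalization (-0.30, adjusted p = 0.0566) and without vector replicate 2 (0.0612), and the CPOX call when array medians were subtracted (-0.26, adjusted p = 0.18).

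Of 20 tested mitochondrial genes of iron and iron-sulfur clusters 2 rose and 5 fell, 35.0% against 43.6% of all genes, with a median of -0.06 log2. The balance turned with scaling, to 6 rises and 3 falls after quantile normalization and 6 and 0 after subtraction of array medians. Without HMGA2 replicate 1 there were 3 falls, without HMGA2 replicate 2 there were 7, and without vector replicate 2 there was 1 rise. The scaffold ISCU (-0.57, adjusted p = 0.00335), the chaperone HSPA9 (-0.57, adjusted p = 0.00202) and LYRM4, a partner of the cysteine desulfurase (-0.55, adjusted p = 0.00736), fell, and all 3 calls were lost when array medians were subtracted. Of 10 tested cytosolic genes 2 rose and 3 fell, 50% against 43.6% of all genes, and after quantile normalization 4 rose and 3 fell. GLRX3, a cytosolic glutaredoxin that carries iron-sulfur clusters, fell (10867 and 14596 on the arrays labelled HMGA2, 32139 and 36744 on those labelled vector, log2 -1.45, SE 0.15, adjusted p = 0.000856). NDOR1 (-0.83, adjusted p = 0.0016) and CIAO2A, which matures ACO1 (-0.76, adjusted p = 0.00754), fell on their brighter probes, and their other probes gave -0.16 and -0.15 and were not called. The rises were NUBP1 (0.69, adjusted p = 0.00395) and CIAO2B (0.55), outside the rule for named genes, the direction of CIAO2B turning when its probes were averaged.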

How the data were processed

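Amplified RNA was labelled with Cy5 and measured on oligonucleotide arrays of 1 colour, per the labels' protocols. Each deposited value is the linear intensity of a probe on an array. The scanner, background correction and normalization are not stated. Per array, 0 to 639 probes were at or below 0. Intensities give no read depth, and the number of arrays limits the precision.

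The platform annotation gave 24740 probes a single gene, 977 probes more than 1 gene, and 6024 no gene. Through RefSeq genes of GRCh38.p14, 1948 probes received a current symbol. Intensities were floored at 1 and put on the log2 scale. Each gene took its brightest probe, the one with the highest mean over the 4 arrays. Genes whose mean lay below the 25th percentile were not tested. limma 3.58.1 in R 4.3.3 (lmFit, eBayes with an intensity trend) was fitted over 13752 genes, and again over every probe for the standard errors of the 10 genes' probes. Adjusted p-values are Benjamini-Hochberg over the whole fit. With 2 arrays per group the smallest two-sided exact permutation p is 0.333. The fit was tested on simulated data.

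The 10 genes and all lists were chosen with earlier results of these data known. In each list, up to 3 called genes with the largest difference and no overlap between groups were named, with the 10 genes, HMGA2 and the 5 genes nearest to LCN2. Same-numbered arrays deviated with r = -0.20, so the numbers were not taken as pairs. The alternatives were quantile normalization, subtraction of array medians, normexp with an offset of 50, other filters, the mean of a gene's probes, no intensity trend, the replicate block, each array left out and an adjusted p of 0.01. A crossed block was added after the data were seen.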

Additional observations from a re-analysis of the deposited data

How the results depend on the processing

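The higher calls among the 10 genes numbered 5 as deposited and 3 without the intensity trend or at an adjusted p of 0.01, where TFRC and FTH1 were lost. Leaving out an array gave 3 to 5 higher and 3 lower. LCN2 stayed higher throughout, at 2.65 log2 after quantile normalization, 2.67 after subtraction of array medians, 2.61 after normexp, and 2.33 to 2.57 with an array left out. The IREB2 difference was -0.38 for the mean of its opposed probes, against -1.04. Over all genes 2051 were higher as deposited, 3844 after quantile normalization, 3715 (with 2479 lower) after median subtraction, 3853 after normexp and 1037 of 3727 at an adjusted p of 0.01. Leaving out an array gave 5323 to 5525 calls, 1650 to 1969 higher and 3542 to 3673 lower. Over the 12 lists 47, 43 and 47 genes were higher under these 3 scalings and 11 at the stricter threshold, 27 were lower after median subtraction, and leaving out an array gave 16 to 24 higher and 41 to 45 lower. Of the 69 list genes called, 34 were called in every alternative that tested them, and 3 (ABCB10, CISD1 and CIAO2B) changed sign when probes were averaged. The brighter HMGA2 probe was called as deposited (-0.39, adjusted p = 0.00296) but not after quantile normalization (-0.19), median subtraction (-0.17) or normexp (-0.19). The dimmer probe (0.37, adjusted p = 0.0177) lost its call after quantile normalization and normexp (both 0.59). The replicate block gave 5329 calls and kept all 8 calls among the 10 genes, with 21 and 40 list genes higher and lower. The crossed block gave 7209 and lost TFRC. Why scaling moves these counts was not tested.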
